A study of Mus musculus with 5 samples.

Results

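The 10 mouse genes Inpp5d, Plcg2, Cd33, Bin1, Picalm, Spi1, Abi3, Ptk2b, Mef2c and Ms4a6d were followed across the nuclei of the hippocampus. They were chosen by symbol, as mouse counterparts of human genes linked to Alzheimer's disease risk that are studied in microglia, and make up 10 of the 32285 gene features in each of 5 libraries. Every symbol belonged to 1 feature, and all 10 had enough UMIs (unique molecular identifiers, each counting 1 captured RNA molecule) to be described.

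The study measured RNA and open chromatin in the same nuclei of hippocampus with the 10x Genomics multiome assay. There was 1 library each of wild type mice, 5xFAD mice, 5xFAD mice with an astrocyte specific MAGL-KO, with a neuron specific MAGL-KO and with a global MAGL-KO, and all 5 carry the batch name v3. The 5xFAD line carries transgenes driven in neurons by a Thy1 promoter and forms amyloid plaques, and MAGL, encoded by Mgll, is the main enzyme that breaks down the endocannabinoid 2-arachidonoylglycerol. The strain, age, sex, number of pooled animals, Cre driver and deleted exons of each group are not given in the sources used here. Values below follow the order wild type, 5xFAD, astrocyte, neuron and global MAGL-KO wherever 5 are given. With 1 library a group no test between genotypes was possible, so each interval covers counting error only and says nothing of the spread between animals.

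As background, microglia are the resident macrophages of the brain, and they read lipids, sugars and debris through surface receptors that signal over kinases to phospholipase C and phosphoinositide 3-kinase. Inpp5d dampens such signals, Plcg2 carries them on and Cd33 encodes a sialic acid receptor. Spi1 and Mef2c are transcription factors, Bin1 and Picalm bend or coat membranes during endocytosis, Abi3 belongs to an actin regulating complex, Ptk2b is a calcium-responsive tyrosine kinase and Ms4a6d is a membrane protein of the tetraspan MS4A family.

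The libraries held 101931020 to 159532813 UMIs, and 26778 nuclei were kept. Between 134 and 223 cell barcodes of a library also occurred in another. Of the kept nuclei, 17379 were excitatory neuron-like, 3407 inhibitory neuron-like, 1411 oligodendrocyte-like, 495 oligodendrocyte precursor-like, 403 microglia-like and 223 astrocyte-like, and the names below are short for such clusters. Cluster names are rebuilt from marker genes, not taken from the study. The other kept nuclei were vascular-like, choroid plexus or ependyma-like, or left unnamed. Unnamed ones numbered 622, 618, 723, 466 and 870 (12.4%, 12.5%, 12.3%, 11.9% and 12.4%). Except with marker-score classes these other nuclei enter no comparison below. The microglia were 1 cluster with all 12 microglial markers raised, and numbered 43, 86, 123, 54 and 97 nuclei (0.858%, 1.73%, 2.10%, 1.38% and 1.38% of nuclei). They were shallow, with median depths of 2039 to 2849 UMIs beside 2159 to 3006.5 in oligodendrocytes and 13922.5 to 17872 in excitatory neurons. Levels are CPM, the UMIs of a gene scaled by the summed UMIs of a class in a library. Microglial markers summed to 14321 to 17703 CPM in them. Excitatory neuron markers summed to 64.5 to 199.7 (0 of 8 genes at 0), inhibitory neuron markers to 17.6 to 116.2 (Lhx6 at 0), astrocyte markers to 158.9 to 307.3 (Gja1 and Slc7a10 at 0) and oligodendrocyte markers to 84.1 to 275.7 (Mog at 0). Border macrophage markers summed to 10.5, 9.04, 3.88, 0 and 324.3, high where the label is global MAGL-KO, and lymphocyte markers, which include the pan-leukocyte gene Ptprc, to 683.0 to 1219 (Cd79a at 0). Mgll was not lower than in 5xFAD in astrocytes where the label is astrocyte MAGL-KO, or in neurons where it is neuron MAGL-KO. In astrocytes it stood at 492.9, 348.2, 482.7, 403.0 and 428.6 CPM and in excitatory neurons at 69.0, 72.9, 89.4, 93.7 and 80.4, in inhibitory neurons at 84.7, 88.5, 96.7, 89.2 and 85.6 and in microglia at 325.7, 108.5, 139.5, 152.4 and 96.8, and both of the latter stood slightly below 5xFAD where the label is global MAGL-KO, with intervals that overlap. UMIs from outside a deleted part would check nothing, so the text writes of libraries by their labels.

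Of the 10 genes, 9 stood more than 2-fold higher in microglia than in excitatory neurons in all 5 libraries, and Ptk2b did not. The count was lower with each nucleus put in the class of its highest marker score, as the closing section gives. Across the 23215 genes with at least 10 UMIs in the 2 classes, 10.5% did so and 37.6% were more than 2-fold lower throughout, a share that takes in genes too rare to give UMIs in the far smaller microglial sums. Among the 3970 genes with a mean of at least 50 CPM over both classes, a limit chosen after seeing the data and met by 9 of the 10 genes, 28.3% were higher and 19.2% lower. Against oligodendrocytes 8 genes passed, all but Bin1 and Picalm, with Ms4a6d on 2 to 12 microglial UMIs a library, beside 13% of 13522 genes. The classes are clusters of the same RNA, so these are descriptions and not tests, although the 10 genes and the related genes named below were left out of the clustering. CPM values are shares of a class total, so a higher share and a smaller total of other RNA cannot be told apart.

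**Figure D1:**
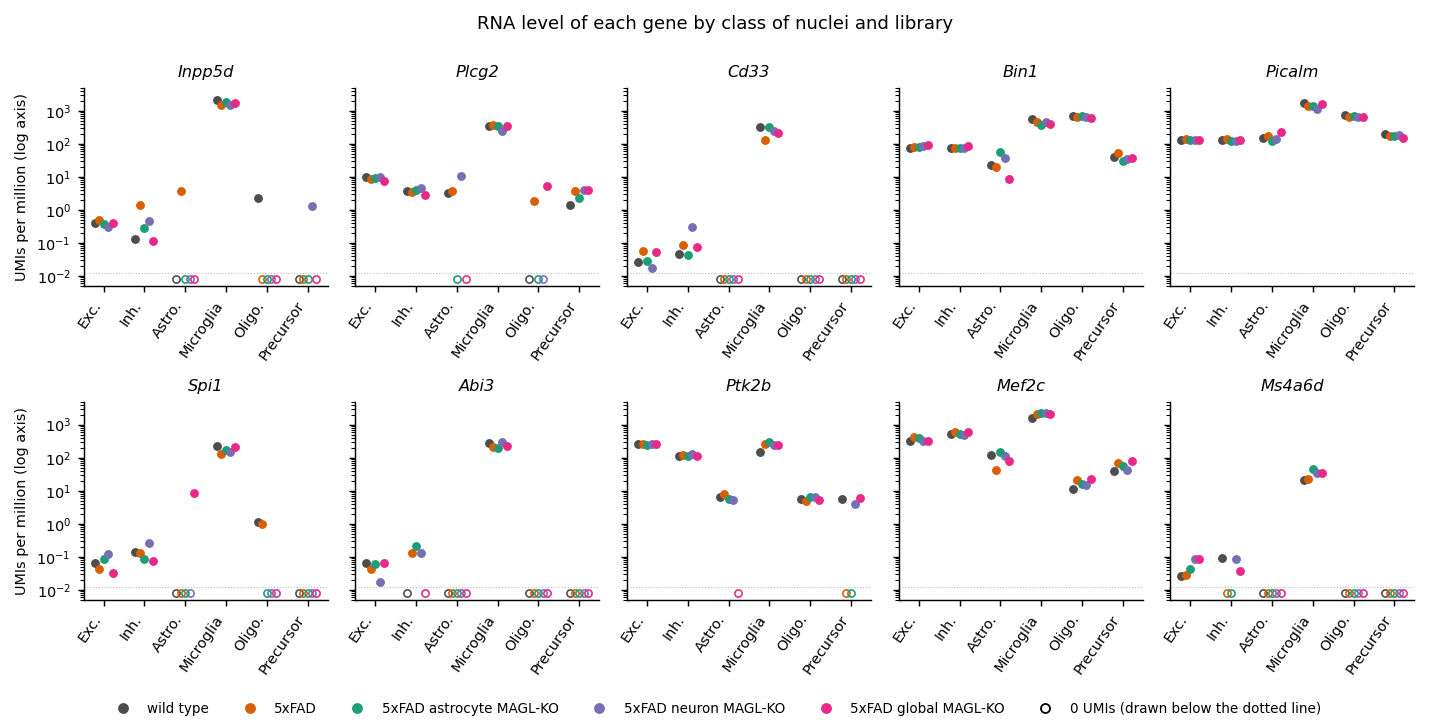
Each panel is a gene, each point a library, and the log axis gives CPM in each of 6 classes of nuclei, with open points for 0 UMIs. Inpp5d, Cd33, Spi1 and Abi3 stood in microglia alone far above the other classes, Ms4a6d was sparse everywhere, Bin1 and Picalm were also high in oligodendrocytes, and Ptk2b and Mef2c were also high in neurons.

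Of the genes of receptor signalling, Inpp5d (ENSMUSG00000026288, chr1:87620312-87720507, plus strand) encodes SHIP1, a phosphatase that removes the phosphoinositide made by phosphoinositide 3-kinase. Gene and region coordinates are those of mm10 (GRCm38), from the deposited features and the GENCODE annotation of that build. In microglia it stood at 2144, 1514, 1814, 1471 and 1766 CPM, and in excitatory neurons between 0.308 and 0.485. The classes did not overlap in any library, and the ratio ranged from 3122 to 5166. After thinning every nucleus to 1000 UMIs, 71.8% to 88.1% of microglia held an Inpp5d UMI beside 0% to 0.0919% of excitatory neurons. Astrocytes, oligodendrocytes and precursors held 1, 2 and 1 UMIs of it in all.

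Plcg2 (ENSMUSG00000034330, chr8:117498291-117635142, plus strand) encodes phospholipase C gamma 2, which makes the second messengers of calcium release and protein kinase C. Its microglial levels were 346.8, 375.1, 352.7, 252.1 and 358.1 CPM, lowest in the library labelled neuron MAGL-KO. Excitatory neurons held 7.54 to 9.73, so the ratio was 26.2 to 47.5, and inhibitory neurons held 2.83 to 4.71. Among excitatory clusters Plcg2 was highest in n0, led by Slc4a4, Glis3, Rfx3 and Prox1, and in n16, led by Scn9a and Glis3, with medians of 28.1 CPM in each. The median over the 19 excitatory clusters was 5.29.

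Of the 7 promoter windows that the RefSeq table holds for these genes, 3 are printed: those of Plcg2 and Picalm, where a region described below lies over the window, and that of Inpp5d, printed for comparison. The sequences are RefSeq's for GRCm38.p6, run 5′ to 3′ on the gene's strand and end at the base before the start site. Capitals mark matches, on either strand, to 3 motifs whose letters were chosen after the sequences were seen: GAGGAAGT, the form bound by PU.1 and related factors, CACGTG, an E-box, and GGGCGG, a GC box (CCGCCC where it lies on the other strand). No match overlapped another. The windows are chr1:87620062-87620311, chr8:117498025-117498274 and, for Picalm, an endocytosis gene described below, the part outside exons, chr7:90129985-90130212, all on the plus strand.
Inpp5d: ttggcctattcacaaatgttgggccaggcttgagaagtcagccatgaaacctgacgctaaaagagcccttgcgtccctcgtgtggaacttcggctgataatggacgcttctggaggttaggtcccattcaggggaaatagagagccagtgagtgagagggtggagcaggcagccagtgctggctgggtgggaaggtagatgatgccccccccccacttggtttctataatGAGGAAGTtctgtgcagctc
Plcg2: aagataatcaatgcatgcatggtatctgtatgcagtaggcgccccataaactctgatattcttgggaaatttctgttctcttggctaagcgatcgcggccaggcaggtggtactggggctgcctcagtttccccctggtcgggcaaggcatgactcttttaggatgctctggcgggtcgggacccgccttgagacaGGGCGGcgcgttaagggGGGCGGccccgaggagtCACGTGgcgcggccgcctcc
Picalm: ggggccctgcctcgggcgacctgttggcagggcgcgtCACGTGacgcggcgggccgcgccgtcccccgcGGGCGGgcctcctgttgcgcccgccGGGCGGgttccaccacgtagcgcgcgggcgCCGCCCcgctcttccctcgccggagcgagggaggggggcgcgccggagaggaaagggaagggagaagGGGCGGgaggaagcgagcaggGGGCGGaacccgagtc
The Inpp5d window held GAGGAAGT 20 bases before the start, and 3.20% of the 32851 windows of 300 bases in the RefSeq table held that motif on either strand. The Plcg2 window held CACGTG 20 bases before its start and GGGCGG at 37 and 54 bases, motifs found in 7.15% and 35.7% of windows. The Picalm window held both motifs, CACGTG 191 bases before the start. The whole 250 bases before the Picalm start, with the exon bases that are not printed, were 79.2% G or C beside 59.6% for Plcg2 and 54.4% for Inpp5d. Of the 7 windows GAGGAAGT was in 1, CACGTG in 2 and GGGCGG in 3, and the windows not printed held no match (Cd33 and 2 of Mef2c) or 1 GGGCGG (Mef2c). A match says only that these letters are there.

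Cd33 (ENSMUSG00000004609, chr7:43524216-43544428, minus strand) encodes a sialic acid receptor of the Siglec family. It stood at 315.2, 135.6, 313.9, 252.1 and 212.9 CPM in microglia, lowest in 5xFAD. Neurons held at most 0.0571 (excitatory) and 0.300 (inhibitory). Astrocytes, oligodendrocytes and precursors held 0 UMIs over the 5 libraries, so with a floor of 3 UMIs over the libraries the pooled microglial level was at least 83.7-fold, 336-fold and 231-fold higher.

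Ptk2b (ENSMUSG00000059456, chr14:66153257-66281052, minus strand) encodes the kinase Pyk2. It was the exception in neurons, at 255.7, 257.2, 239.7, 251.3 and 265.3 CPM in excitatory neurons and 147.1, 266.6, 294.5, 234.5 and 246.8 in microglia. The ranges of these classes overlapped, and the ratio of microglia to excitatory neurons ran from 0.575 to 1.23 with a pooled value of 0.990 [0.869, 1.12]. The 8 excitatory neuron markers stood in microglia at 0% to 28.9% of their own class level, with a median of 8.0%. Inhibitory neurons held 108.9 to 129.1, below every microglial value. Oligodendrocytes held 4.79 to 6.54 and astrocytes 0 to 7.74, so within glia Ptk2b was high in microglia.

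Of the transcription factors, Spi1 (ENSMUSG00000002111, chr2:91082390-91115756, plus strand) encodes PU.1, which sets up macrophage enhancers. Its microglial levels were 220.7, 131.1, 174.4, 152.4 and 212.9 CPM, and no excitatory value passed 0.120. Astrocytes held 1 UMI, oligodendrocytes 2 and precursors 0, the last of which gives a microglial level at least 167-fold higher.

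Mef2c (ENSMUSG00000005583, chr13:83504034-83667080, plus strand) encodes a MADS box factor that acts in neurons and microglia. In microglia it stood at 1650, 2133, 2209, 2304 and 2105 CPM, lowest in wild type. Inhibitory neurons held 473.8 to 598.0 and excitatory neurons 312.5, 410.7, 394.2, 313.1 and 325.5, and neither class overlapped the other or microglia. The ratio to excitatory neurons was 5.19 to 7.36 and to inhibitory neurons 3.23 to 4.86. Oligodendrocytes were lowest, at 11.2 to 22.5.

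Of the endocytosis genes, Bin1 (ENSMUSG00000024381, chr18:32377230-32435737, plus strand) encodes amphiphysin 2, a BAR domain protein that curves membranes. It was highest in oligodendrocytes, at 718.6, 659.7, 702.4, 643.7 and 616.5 CPM, and second in microglia, at 577.9, 447.4, 383.7, 451.4 and 401.7. These ranges did not overlap, and microglia stood at 0.546 to 0.804 of the oligodendrocyte level. Excitatory neurons held 75.9 to 90.9, inhibitory neurons 73.2 to 83.9, precursors 29.4 to 53.7 and astrocytes 8.75 to 55.5, and of these the neuron ranges overlapped each other, as did those of precursors and astrocytes.

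Picalm (ENSMUSG00000039361, chr7:90130213-90213465, plus strand) encodes a clathrin assembly protein. Its order was microglia (1702, 1401, 1391, 1178 and 1592 CPM), then oligodendrocytes (651.2 to 763.5), with precursors, astrocytes and both neuron classes together at 119.9 to 236.1. Microglia were 1.81 to 2.36 times the oligodendrocyte level.

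The remaining genes were low outside microglia. Abi3 (ENSMUSG00000018381, chr11:95830074-95842476, minus strand) stood at 283.7, 216.9, 197.6, 293.1 and 232.3 CPM in microglia, with 11 UMIs in all inhibitory neurons and 19 in all excitatory neurons. Astrocytes, oligodendrocytes and precursors held 0, giving levels at least 82.2-fold, 330-fold and 227-fold higher in microglia. Ms4a6d (ENSMUSG00000024679, chr19:11586604-11604849, minus strand) was sparse, with 32 microglial UMIs in all at 21.0, 22.6, 46.5, 35.2 and 33.9 CPM. It had 0 UMIs in astrocytes, oligodendrocytes and precursors, and 20 in excitatory neurons.

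Classes hid differences between neuronal clusters. Over excitatory clusters Mef2c ran from 20.6 CPM in excitatory cluster n10, led by Nectin3 and Trps1, to 1408 in n14, led by Rorb and Pdzrn3, a 68.3-fold span over 19 clusters (medians over libraries). The inhibitory cluster n27, led by Btbd11 and Erbb4 after a gene model, reached 1402, and the other 5 inhibitory clusters held 259.0 to 690.7. Over all 6 inhibitory clusters Mef2c spanned 5.41-fold and Ptk2b 47.8-fold. The highest neuronal clusters thus came close to the lowest microglial library, 1650. In n14 and n27, where Mef2c was highest, Ptk2b stood at 112.5 and 3.94, and its highest excitatory median was 380.7, in n0. Bin1 (56.7 to 109.1) and Picalm (93.9 to 170.0) spanned less than 2-fold over excitatory clusters.

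**Figure D2:**
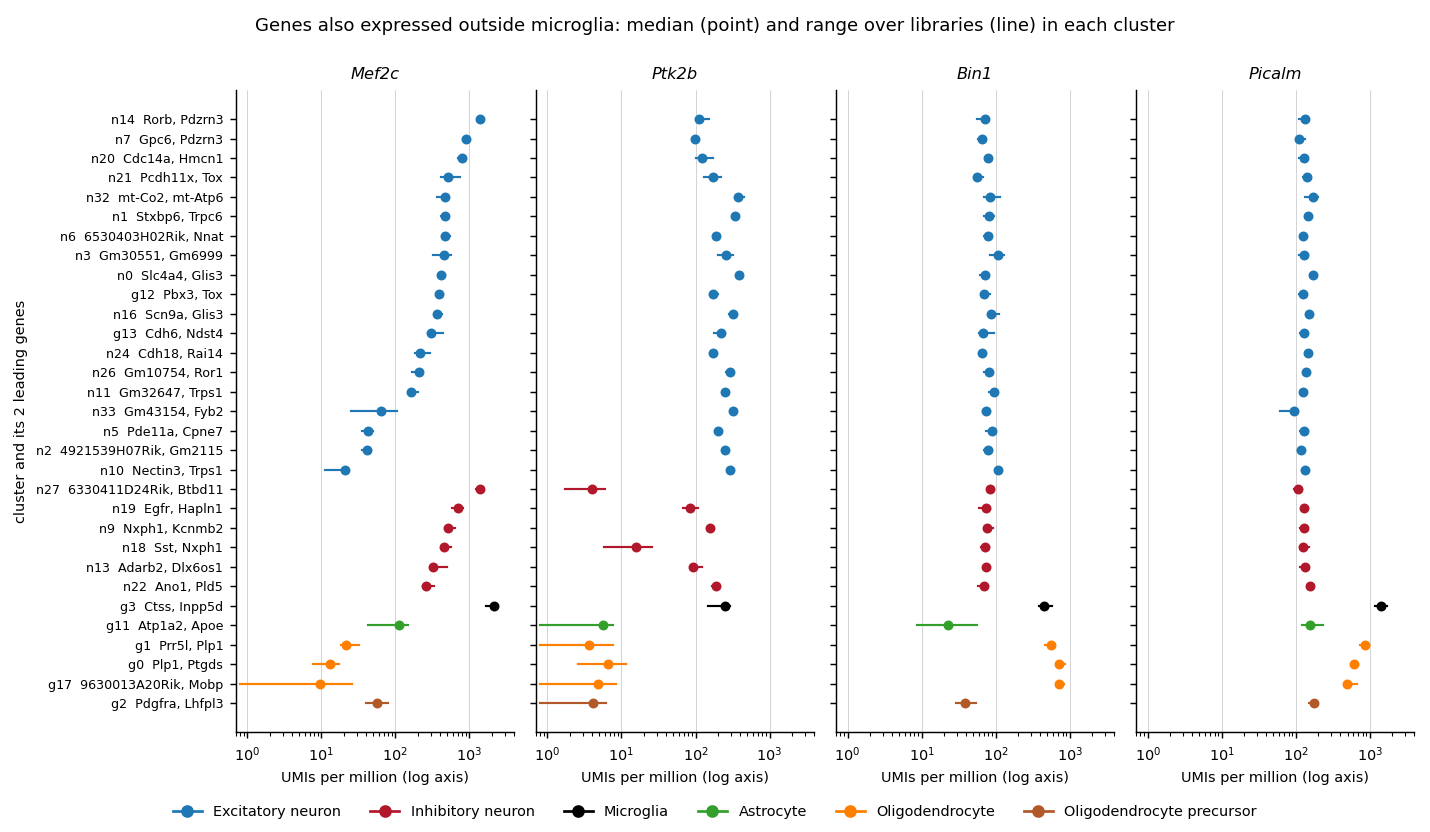
Rows are clusters of nuclei with their leading genes, and the log axes give CPM of Mef2c, Ptk2b, Bin1 and Picalm, as the median (point) and range over libraries (line). Mef2c spans 20.6 to 1408 over excitatory clusters, while Bin1 and Picalm lie within narrow bands in neurons and are higher in microglia and oligodendrocytes.

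Other genes of the same pathways were read from 4 lists, which were also left out of the clustering. All 19 listed genes between receptor and phospholipase C or phosphoinositide 3-kinase were more than 2-fold higher in microglia than in excitatory neurons in all 5 libraries, with a median ratio of 508. Of them 17 had a mean of at least 50 CPM over both classes, and their median ratio was 556 beside 1.57 over all genes at that level. They include the receptor chain Trem2, the adaptor Tyrobp, the kinase Lyn (172-fold), the adaptor Blnk (82.5-fold) and the growth factor receptor Csf1r (1811-fold). Trem2, Tyrobp and Csf1r are also among the markers by which the microglia were named, so their place among the higher genes is no support. Of 10 factors that act with PU.1, 9 passed, such as Runx1 (3959-fold), and Cebpa, with 15 microglial UMIs, did not. Of 22 genes of clathrin endocytosis 8 were higher, 4 lower (Dnm1, Dnm3, Itsn1 and Epn2) and 10 neither, with Rin3, a Rab5 exchange factor, at 104-fold. At a mean of at least 50 CPM over both classes all 17 signalling genes, Trem2, Tyrobp and Csf1r among them, and all 8 partners of PU.1 were higher. The lists were chosen with earlier results of these data known, so these counts and median ratios are descriptions and no support. Of the 16 endocytosis genes at that level 8 were higher and 4 lower. Over all genes at that level the shares were 28.3% higher and 19.2% lower.

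Relatives of the 10 genes within their families were read in the same way. Of 21 paralogs 19 had enough UMIs, and 6 were higher and 7 neither. Of the other 6, Siglecg and Spic held 0 microglial UMIs beside 11 and 15 excitatory ones, too few to show a lower level, and 4 were lower. Of the 9 paralogs with a mean of at least 50 CPM over both classes 3 were higher and 4 lower, beside 28.3% and 19.2% of all genes at that level. Bin2, a relative of Bin1 found in blood cells, was 5234-fold higher in microglia, whereas Amph, the neuronal amphiphysin, stood at 0.0247 of the excitatory level. Snap91, the neuronal relative of Picalm, stood at 0.0134, Ptk2, which encodes focal adhesion kinase, at 0.110 and Abi2 at 0.328. Mef2a was 10.7-fold higher, Siglech 4074-fold, and Plcg1 2.19-fold but not past 2-fold in every library. Siglech is also a marker by which the microglia were named, so its ratio is no support.

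Across 30 sums (6 classes in 5 libraries), Pearson's r of log2(CPM + 5) named the nearest genes of 12587. Those of Inpp5d were Adap2 (0.998) and Ikzf1 (0.998), those of Abi3 Arhgap45 (0.999) and Ikzf1 (0.999), those of Cd33 Arhgap45 (0.998) and Adap2 (0.997), and those of Spi1 Adap2 (0.989) and Lcp2 (0.989). Plcg2 was nearest to Blnk (0.988) and Capn3 (0.979). Bin1 was nearest to Snx30 (0.967) and Trim36 (0.953), Picalm to Rasgrp3 (0.976) and Stard3 (0.974), Ptk2b to Cbfa2t3 (0.957) and Rtn4rl1 (0.955), and Mef2c to Clip1 (0.962) and Plcl2 (0.958). Sums of a library share its depth and those of a class share its nuclei, so r mainly describes the order of classes. Between the genes themselves r was 0.996 for Inpp5d and Cd33 but 0.0939 for Bin1 and Mef2c.

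The comparison of genotypes within microglia asked whether these genes differ in 5xFAD and in the libraries labelled MAGL-KO. Cd33 alone passed 2-fold among the 9 genes with at least 20 UMIs in the 2 libraries together (Ms4a6d had fewer), and it did so in 2 of 4 comparisons. It was 0.430 [0.250, 0.738] of wild type in 5xFAD (30 UMIs in each library), where 4.83% of 3418 genes were at least 2-fold lower and 11.4% were that much higher. Where the label is astrocyte MAGL-KO, Cd33 was 2.32 [1.51, 3.65] times 5xFAD, where 4.45% of 4692 genes were as high and 3.67% as low. In the library labelled neuron MAGL-KO the ratio was 1.86 [1.14, 3.07], beside 4.01% and 4.52% of 4069 genes past 2-fold higher and lower, and in that labelled global MAGL-KO 1.57 [0.965, 2.59], beside 3.59% and 3.84% of 4293. The 3 last comparisons share the 5xFAD library, the lowest of the 5 in Cd33, and against wild type the labelled knockouts stood at 0.996, 0.80 and 0.676.

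Cd33 was also read in subsets of the microglial nuclei, whose differences from one another were not tested. In nuclei with Xist and no Y-linked UMI its levels were 260.9, 245.4, 316.3, 266.6 and 189.9 CPM, and the log2 ratio of 5xFAD to wild type was -0.09, from 18 and 8 UMIs, with intervals of [145, 388] and [113, 514] for the levels. In nuclei with a Y-linked UMI and no Xist they were 304.5, 81.5, 334.0, 373.8 and 184.6, the 5xFAD value from 7 UMIs in 35 nuclei. Microglia with Xist alone numbered 14, 28, 48, 25 and 43, and those with Y-linked UMIs alone 16, 35, 36, 8 and 22. The mix thus differed between libraries, and its part in the ratios between genotypes was not tested. With each nucleus put in the class of its highest marker score, which makes 870 nuclei microglia, no gene passed 2-fold and the log2 ratio of Cd33 in 5xFAD was -0.42, beside -1.22 by cluster. Of these marker-score microglia only 43, 83, 123, 53 and 93 lay in the microglial cluster, so that class also takes in nuclei of other clusters.

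The other differences between 5xFAD and wild type were smaller than 2-fold. Inpp5d stood at 0.706 [0.592, 0.845] of wild type and Mef2c at 1.29 [1.08, 1.56], intervals that exclude 1. Mef2c stood at 1.28 to 1.4 of wild type in the 4 5xFAD libraries. Ptk2b stood at 1.81 [1.00, 3.52], 2.00 [1.12, 3.83], 1.59 and 1.68 of wild type, on 14 wild type UMIs. All 4 ratios of a gene divide by the same wild type library of 43 microglia, so a shared side of wild type is not 4 separate observations. With classes by marker score the log2 ratio of 5xFAD to wild type turned to 0.29 for Inpp5d, 0.18 for Picalm and Spi1, 0.20 for Abi3 and -0.14 for Ptk2b. Against 5xFAD, the intervals of Inpp5d in the libraries labelled astrocyte (1.2 [1.04, 1.38]) and global MAGL-KO (1.17 [1.00, 1.36]) and of Plcg2 in that labelled neuron MAGL-KO (0.672 [0.454, 0.983]) excluded 1. For Inpp5d where the label is global MAGL-KO the log2 ratio of 0.22 turned to -0.22 with classes by marker score, -0.01 and -0.05 in nuclei with Xist alone and Y-linked UMIs alone and -0.03 within cluster m1, described below. Where the label is astrocyte MAGL-KO it went from 0.26 to 0.003 with classes by marker score.

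**Figure D3:**
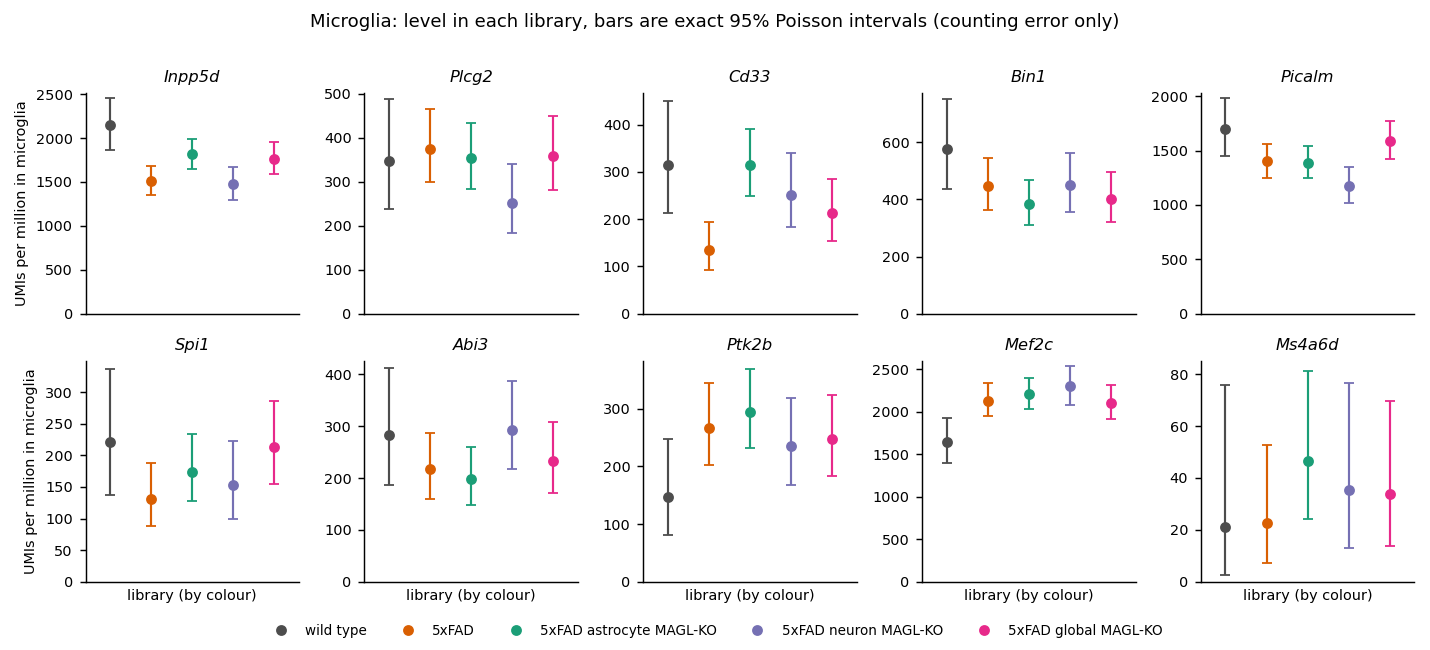
Each panel is a gene, points give its CPM in the microglia of each library (colours) and bars the exact 95% Poisson interval, which covers counting error only. Cd33 is lowest in 5xFAD (135.6) and Mef2c lowest in wild type (1650), and most other intervals overlap.

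The related genes were read by the same rule, beside the 11.4% of all genes that were 2-fold higher and the 4.83% that were as much lower in 5xFAD microglia. Of 18 signalling genes with enough UMIs Tyrobp did (2.30-fold higher), of 8 partners of PU.1 none, of 8 paralogs Abi2 (2.69-fold higher) and of 13 endocytosis genes Synj1 (2.15-fold higher) and Ap2a2 (0.364). In excitatory neurons Mef2c stood at 1.31 [1.29, 1.34] of wild type in 5xFAD. Within 13 excitatory clusters the same ratio was above 1 in 9, with a median of 1.09 and a range of 0.834 to 1.74.

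Microglia formed clusters whose shares differed by library. Cluster m0, high in Apoe (4.31 to 11.8 times m1) and low in P2ry12 (0.330 to 0.398), held 2 of 43 wild type nuclei (4.65%) and 57.0%, 56.9%, 70.4% and 49.5% in the other libraries. Cluster m1 held 41, 31, 46, 14 and 47 nuclei, and 12 and 5 nuclei lay in m2 and m3. Within the 4 libraries with at least 10 nuclei of each, Bin1 was lower in m0 in all 4, at 0.566, 0.531, 0.442 and 0.487 of m1, each with an interval below 1. Inpp5d (0.713 to 0.936), Cd33 (0.454 to 0.834) and Abi3 (0.818 to 0.992) were also lower in all 4, which makes 4 of 10 genes beside 10.6% of 6330. Ptk2b was higher in all 4, at 2.32, 1.10, 2.97 and 1.01, beside 13.5% of genes, and the largest of these rests on 4 UMIs in m1. In nuclei thinned to 1000 UMIs only 2 genes stayed lower in all 4 libraries and the median log2 ratio of Abi3 turned from -0.15 to 0.11. These clusters come from the same RNA and are described, not tested.

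Within m1, where wild type and 5xFAD could be compared in 41 and 31 nuclei, Cd33 still stood at 0.477 [0.216, 0.980]. Inpp5d was at 0.886 [0.703, 1.11], Mef2c at 1.11 [0.870, 1.41] and Ptk2b at 0.901 [0.340, 2.28], all with intervals that include 1. Against 5xFAD within m1, Cd33 stood at 2.32 [1.15, 5.05] where the label is astrocyte MAGL-KO and 2.06 [0.850, 5.07] where it is neuron MAGL-KO. Ptk2b stood at 2.18 [0.997, 5.28] where it is astrocyte MAGL-KO and Spi1 at 2.34 [1.03, 5.95] where it is global MAGL-KO, and with the Cd33 ratio of 5xFAD to wild type these are the 5 past 2-fold with at least 20 UMIs in both libraries together. Of all genes with as many UMIs in m1, 4.58% were as high and 4.3% as low in 5xFAD against wild type. Against 5xFAD 4.61%, 5.27% and 6.38% were as high and 4.12%, 7.99% and 3.98% as low where the label is astrocyte, neuron and global MAGL-KO. Border macrophage UMIs lay in 5 of the 47 m1 nuclei where the label is global MAGL-KO, in 1 of 31 in 5xFAD and in 1 of 41 in wild type. Without such nuclei Spi1 stood at 2.09 [0.896, 5.43], and Cd33 in 5xFAD at 0.534 [0.239, 1.11] of wild type, no longer past 2-fold. Cd33 went from 30 to 27 UMIs in wild type there and stayed at 11 in 5xFAD. Over whole microglia wild type stood apart from the other libraries in the share of m0, in the summed plaque-associated markers (346.8, 8383, 4620, 8788 and 4646 CPM) and in the homeostatic markers (7681, 4501, 5294, 4326 and 4564), and the part of these in the ratios to wild type was not tested.

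**Figure D4:**
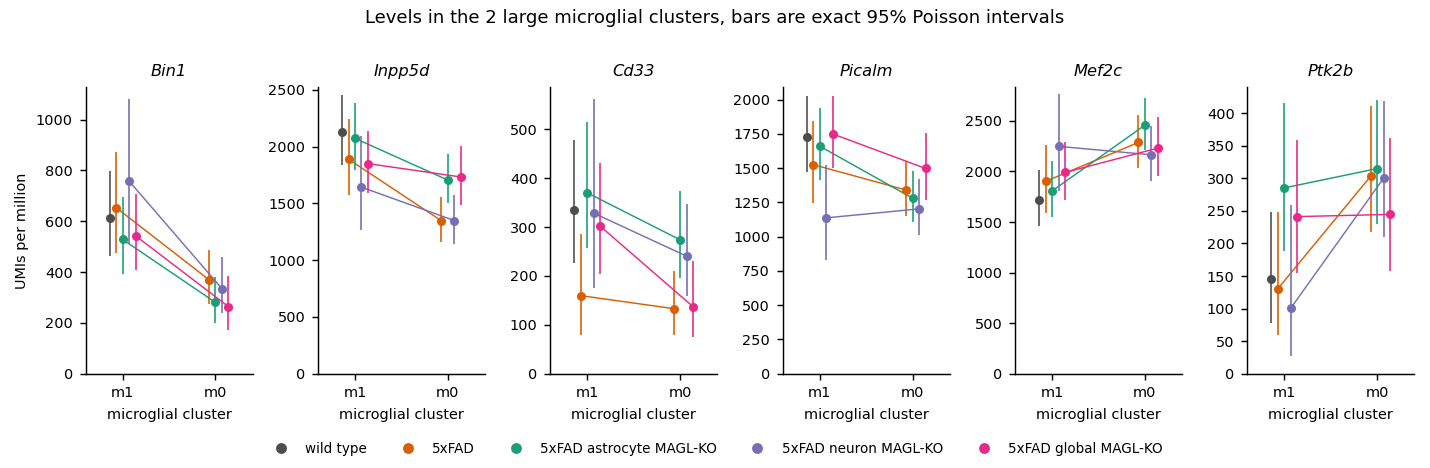
Points give CPM of 6 genes in microglial clusters m1 and m0, joined within a library (colours), with exact 95% Poisson intervals; wild type has no point in m0, where it held 2 nuclei. Bin1 lies lower in m0 than in m1 on every line, and Ptk2b lies higher in m0, by 1.01 to 2.97 times.

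Open chromatin was tested, because regions were not used to form the classes. Transposase cut sites were summed over nuclei of a class and library and are given as CPM of the cut sites, and edgeR's quasi-likelihood test with the library as a term compared classes over 37571 regions, with Benjamini-Hochberg adjustment over all of them. The 5 libraries serve as replicates of a class and differ in genotype, and classes named from RNA of the same nuclei are not independent of them. Of 135 regions within the genes or 10 kb before them, 36 were tested (16 over an exon, 19 intronic, 1 outside), none at Cd33 or Ms4a6d, where 5 and 4 regions were too low. The log2 differences are scaled by TMM factors (edgeR's correction for composition), and against excitatory neurons they lie below the ratios of the CPM values, so their direction is relative to that scaling. Against excitatory neurons 15 regions were higher in microglia and 15 lower, beside 18.7% and 53.9% of all regions tested. The median log2 difference over all regions was -1.10, and with total cut sites in place of TMM factors it was -0.78, which made the split over all regions 10347 higher to 18051 lower and that of these genes 17 to 11. Of the 15 higher regions 11 passed the filter on low counts through microglia alone, and of the 15 lower ones 6 through excitatory neurons alone. The filter thus favoured a difference in these, although 1 other region that passed through microglia alone was neither higher nor lower. Differences of regions that passed through 1 class alone are given below as descriptions, without a p, and the counts are no support. Against oligodendrocytes 24 were higher and 2 lower, beside 17.4% and 32.5%, with a median of -0.30, and since 12 of the 36 regions passed the filter through microglia alone these counts are no support either.

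Of the signalling genes, Inpp5d and Plcg2 each held regions that were high in microglia. The higher regions given here passed the filter through microglia alone, and the lower ones through excitatory neurons alone. At Inpp5d an intronic region (chr1:87657565-87658569) held 56.1, 56.8, 82.0, 48.2 and 51.5 CPM in microglia and 1.10 to 2.10 in excitatory neurons, a log2 difference of 4.17 ± 0.30 (SE). Oligodendrocytes held 0 cut sites there, so the pooled microglial level was at least 177-fold higher. A region over an annotated Inpp5d start (chr1:87621474-87622401) was higher by 1.12 ± 0.29, whereas a coding exon region (chr1:87708792-87709719) was lower at a log2 difference of -3.94 ± 0.51. At Plcg2 the region that holds the promoter printed above (chr8:117497976-117498889) stood at 64.1, 55.5, 70.3, 99.8 and 56.4 in microglia, 5.52 to 6.01 in excitatory neurons and 0 to 4.58 in oligodendrocytes. Its log2 differences were 2.66 ± 0.22 and 4.51 ± 0.35. The Plcg2 intronic region chr8:117526006-117527041 was higher by 3.68 ± 0.31, and the intronic region chr8:117516766-117517660 stood at -3.52 ± 0.51 against excitatory neurons. No listed region overlapped the Inpp5d window printed above.

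Ptk2b, whose RNA did not separate microglia from excitatory neurons, had mostly regions that were lower in microglia after TMM scaling, beside 53.9% of all regions tested. Some of these passed the filter through excitatory neurons alone, others were lower only after TMM scaling, and their number is no support. The only higher one, the intronic region chr14:66223668-66224639, passed through microglia alone, so the filter favoured a higher value there. Its difference was 1.63 ± 0.24, at 36.3 to 58.0 CPM beside 7.05 to 7.97. The region over an inner start (chr14:66213325-66214265) stood at -0.79 (adjusted p = 0.00497) and at 0.11 with classes by marker score. Its pooled microglial CPM was 1.09-fold the excitatory one, so it was lower only after TMM scaling. The intronic region chr14:66260065-66261002 stood at -3.86 ± 0.35, at 0 to 8.60 beside 26.3 to 32.0, and the coding exon region chr14:66157222-66158111 at -4.79 ± 0.56. The latter passed the filter through excitatory neurons alone. The region at the outer start (chr14:66280702-66281524) had a mean of 20.8 CPM in microglia and 11.3 in excitatory neurons, which after TMM scaling was a log2 difference of -0.02 ± 0.26 (adjusted p = 0.954).

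Of 6 Mef2c regions 4 were higher in microglia and 1 was lower, beside 18.7% and 53.9% of all regions tested. All of the higher ones except chr13:83524236-83525068 passed the filter through microglia alone. The filter favoured higher values in these, so the count is no support. A region over an inner annotated start (chr13:83571823-83572787, 5′ UTR exon) held 98.8, 106, 104, 103 and 110 CPM in microglia, 3.33 to 4.17 in excitatory neurons and 0 in oligodendrocytes, a log2 difference to excitatory neurons of 3.88 ± 0.24. The intronic regions chr13:83609182-83610133 (2.93 ± 0.28) and chr13:83649466-83650416 (3.68 ± 0.31) were also higher. At another start (chr13:83524236-83525068) the difference was 0.42 ± 0.18, and the intronic region chr13:83517899-83518832 had a mean of 37.1 CPM beside 19.4, a difference of 0.04 ± 0.20 after TMM scaling (adjusted p = 0.854). The exon region chr13:83654735-83655660 had a mean of 10.3 CPM in each class, a difference of -0.85 ± 0.32 only after TMM scaling (adjusted p = 0.0137). At Spi1 the intronic region chr2:91101114-91102038 was higher in microglia than in oligodendrocytes (0.81 ± 0.35, adjusted p = 0.0443), which turned to -0.13 with classes by marker score, but not past the threshold against excitatory neurons (0.59 ± 0.29, adjusted p = 0.061), and the last-exon region chr2:91114775-91115708 was lower than both, at -2.72 ± 0.49 and -2.12 ± 0.58.

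At the starts of the endocytosis genes no difference between microglia and oligodendrocytes passed the test, and both starts were higher in microglia than in excitatory neurons. The Picalm start (chr7:90129703-90130621), which holds the sequence above, stood at 184, 158, 152, 129 and 142 CPM in microglia and 129 to 167 in oligodendrocytes (log2 difference -0.23 ± 0.11, adjusted p = 0.0667), and at 40.1 to 46.8 in excitatory neurons (0.86 ± 0.10, adjusted p = 3.91e-15). The intronic Picalm region chr7:90150104-90150954, listed in 4 libraries, was higher than in excitatory neurons (2.00 ± 0.48, adjusted p = 8.42e-05), and its difference to oligodendrocytes was -0.14 ± 0.48 (adjusted p = 0.853). The Bin1 start (chr18:32376768-32377682) stood at 82.6 to 96.1, 69.5 to 97.6 and 19.7 to 23.0, with differences of -0.20 ± 0.15 (adjusted p = 0.246) and 1.12 ± 0.14. Of 6 Bin1 regions 3 were lower than in excitatory neurons after TMM scaling, beside 53.9% of all regions tested. The intronic region chr18:32410337-32411277 had means of 11.5 CPM in microglia beside 14.5 (-1.41 ± 0.30, and 0.0008 with classes by marker score). The exon region chr18:32414245-32415101 had 11.2 beside 14.7 (-1.34 ± 0.30), and passed the filter through excitatory neurons alone. At the intronic region chr18:32390958-32391861 the difference was -0.70 ± 0.29 although the pooled microglial CPM was 1.17-fold the excitatory one. This region was lower in microglia than in oligodendrocytes in all 5 libraries, at 5.34 to 25.8 beside 24.2 to 43.9, ranges that overlap (-1.58 ± 0.29, adjusted p = 6.91e-07). At Abi3 an intronic region (chr11:95838507-95839543) held 26.7, 59.3, 96.1, 37.8 and 77.3 in microglia and 1.93 to 2.87 in excitatory neurons (3.69 ± 0.29), and 0 in oligodendrocytes and astrocytes, at least 189-fold and 54.5-fold lower. The Abi3 exon region at the 5′ end of the gene (chr11:95842446-95843344) had means of 49.9 CPM in microglia and 4.09 in excitatory neurons (2.65 ± 0.28), and 0 in oligodendrocytes. These Abi3 regions passed the filter through microglia alone.

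**Figure D5:**
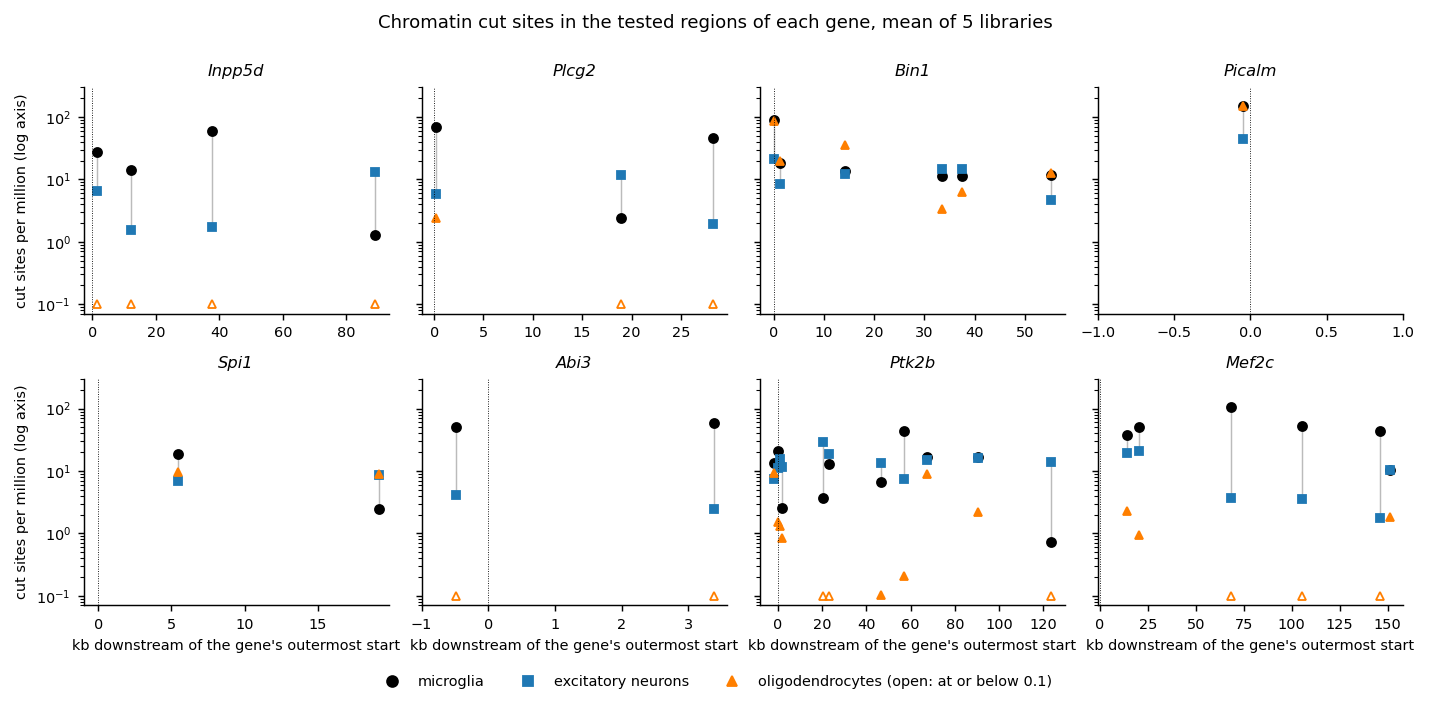
Each panel is a gene with tested regions listed in all 5 libraries, the x axis is the distance in kb from its outermost start and the log axis the mean CPM of 5 libraries. Microglia (circles) lie above excitatory neurons (squares) at the Inpp5d, Plcg2, Abi3 and Mef2c regions that the text gives as higher, and oligodendrocytes (triangles) lie with microglia at the starts of Bin1 and Picalm.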

How the data were processed

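The authors deposited, for each of 5 libraries, a matrix of raw counts: UMIs per gene and transposase cut sites per peak. Cell Ranger ARC 2.0.0 wrote the matrices per the file headers, and the submitters' processing notes also name mm10 and Seurat. Each library lists its own peaks. The members and lists were chosen with earlier results of these data known. The text names the 10 members, 2 nearest genes for each (at least 500 UMIs; those of Ms4a6d are not reported here), genes of the 4 lists, and up to 2 regions per member with the lowest adjusted p besides those over a start. Mgll, the genes that lead clusters and the Ptk2b region chr14:66223668-66224639 and Mef2c regions chr13:83609182-83610133, chr13:83517899-83518832 and chr13:83654735-83655660 and Bin1 region chr18:32414245-32415101 fall outside that rule and were chosen after their values were seen.

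Nuclei needed 500 detected genes or more and a mitochondrial share of 5% or less. Those with the highest Scrublet scores were removed at 0.8% per 1000 nuclei. The remaining nuclei were clustered (scanpy 1.11.5, 2000 variable genes, 40 principal components, 15 neighbours, Leiden resolution 1) and named from marker lists. UMIs were summed per class and library and scaled to CPM, with exact 95% Poisson intervals for levels and exact conditional intervals for ratios. Peaks overlapping between libraries were joined into 220645 regions, and a peak not listed in a library entered as 0. Regions were tested with edgeR 4.0.16 (TMM, quasi-likelihood, false discovery rate 0.05, library as a term). On simulated data with 28771 regions 50 of 50 changed regions were recovered at each of 8-fold, 4-fold, 0.25-fold and 0.125-fold, with 10 false calls. The changed regions were drawn from those at or above the median count. All regions had the same spread and the classes did not differ elsewhere. Recovery at low counts or with many differing regions was therefore not measured. Alternatives are described in the closing section.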

Additional observations from a re-analysis of the deposited data

Results flagged for a closer look

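Of 27 levels of a gene in a class checked for a library far from the other 4, 2 stood out, where chance gives about 1 in 20. Plcg2 in the microglia of the library labelled 5xFAD neuron MAGL-KO was at 252.083 CPM, with the nearest library at 346.762. Bin1 in the inhibitory neurons of the library labelled 5xFAD global MAGL-KO was at 83.861, with the nearest at 75.7861.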

How the results depend on the processing

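No paired analysis was possible because there is 1 library per group, as far as genotypes go. Classes were paired within a library by the library term, and without it the regions higher and lower were 13 and 15 against excitatory neurons and 24 and 3 against oligodendrocytes. Over all 37571 regions these counts were 6506, 19651, 6357 and 12180. Of the counts that answer a comparison, 73 under an alternative stayed within 1.5 times and 14 did not. Of single genes and regions 927 stayed, 63 moved, 20 lost and 20 gained the threshold and 5 past it changed sign. Another 69 values not past a threshold also changed sign, 14 of them with classes by highest marker score, where Inpp5d in 5xFAD against wild type turned to 0.2944 and Ptk2b to -0.1374. With microglia kept only where cluster and marker score agree, a setting read in RNA alone, 1 such value changed sign. It was the log2 ratio of Ptk2b to 5xFAD where the label is global MAGL-KO, from -0.1114 to 0.0072. The count of 9 genes above excitatory neurons stayed at 9 without each library in turn and was 7 with classes by highest marker score. The 2 calls between libraries became 0 with marker-score classes and 5 within cluster m1, or 4 there without nuclei with border macrophage UMIs, and stayed at 2 without such nuclei in all microglia. The alternatives within m1 and without border macrophage UMIs, total cut sites and the splits by Xist and Y-linked UMIs were added after seeing the data. Genes lower in m0 in all 4 libraries went from 4 to 2 after thinning, where Abi3 changed sign to 0.1082. With the members kept in the clustering Abi3 was not lower in all 4, at 1.04 of m1 where the label is neuron MAGL-KO. Without a filter on low counts the regions higher and lower than in excitatory neurons were 40 and 36, and those against oligodendrocytes 57 and 7, of 135 regions tested. Over all 220645 regions these counts were 14316, 124518, 12795 and 23981. With marker-score classes these counts were 32, 4, 37 and 8 of 101 regions tested, beside 16629, 9358, 14493 and 20950 of all 136880. With no doublets removed they were 20, 22, 17 and 15 of 58, beside 11800, 41071, 5305 and 44442 of all 67466. Leaving out a library gave 16 to 18 higher and 12 to 18 lower than in excitatory neurons, and 22 to 25 higher and 2 to 5 lower than in oligodendrocytes, 5 without the library labelled global MAGL-KO. Over all 36409 to 47332 regions tested there, these counts were 7293 to 7969, 17949 to 26134, 6128 to 6596 and 10911 to 14679. Regions past the threshold that changed sign were Bin1 at 32410337 (0.0008 against excitatory neurons with marker-score classes, -0.1878 against oligodendrocytes with no doublets removed), Ptk2b at 66213325 (0.1054) and Spi1 at 91101114 against oligodendrocytes (-0.1269), the last 2 with marker-score classes. The cause was not tested. Depth limits Ms4a6d, with 32 microglial UMIs, and the regions of Cd33 and Ms4a6d.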
